A study of Rattus norvegicus with 16 samples.

Results

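The genes described here encode subunits of voltage-gated calcium channels: the pore genes Cacna1a, Cacna1b, Cacna1c, Cacna1d, Cacna1e, Cacna1g and Cacna1h, the beta subunit genes Cacnb3 and Cacnb4, and the alpha2delta gene Cacna2d1. Each was taken as the locus that carries its symbol in the deposited table, the one with the highest mean where a symbol has several, as Cacna1c does with 2. The 10 genes are 10 of 28168 loci, and all 10 were among the 14824 loci that averaged 1 FPKM or more (sequenced fragments per length of transcript and per mapped total) and were tested. Poly-A RNA came from male Sprague-Dawley rats, whose frontal cortex was sequenced in 16 libraries, 4 in each of 4 groups. Every rat began its diet at 11 weeks of age and kept it for 7 weeks. Without injections, the chow group received chow and the HF group received a high fat diet. High fat feeding in the HF_PBS group was joined by intraperitoneal injections of the vehicle PBS over 10 days, and the HF_5AzaD group had the same with 5-AzaD, an inhibitor of DNA methyltransferases, dissolved in the PBS. Libraries are named by group and by the number in their title. Nothing in the labels says how the libraries of a group map to animals, so the p-values measure the spread between libraries. The titles of the PBS libraries use letters that the design text uses for the diet alone. The groups here follow the treatment stated for each library, and HF and HF_PBS would change places if the titles were right instead.

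Voltage-gated calcium channels open when the membrane depolarises and let calcium into the cell. The pore subunit sets the current type: P/Q-type for Cacna1a, N-type for Cacna1b and R-type for Cacna1e, which act at nerve terminals, L-type for Cacna1c and Cacna1d, which act on cell bodies and dendrites and signal to the nucleus, and T-type for Cacna1g and Cacna1h, which open near the resting potential and shape burst firing. Beta subunits bind inside the cell and bring the high-voltage pores to the membrane, and alpha2delta subunits sit outside and raise the number of channels at the synapse. Cacna2d1 encodes the protein that gabapentin binds.

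Promoter sequences were found in RefSeq (build GRCr8) for 7 of the 10 genes. Those of Cacna1b and Cacnb3 are shown because these were the only members of the 10 that passed the test between HF_PBS and HF, and that of Cacna1d because it was the only one that passed between HF_5AzaD and chow. Each runs over the 250 bases before the start of the gene, with CG dinucleotides, the sites of DNA methylation in mammals, in capitals. The windows are chr3:27944286-27944535 on the minus strand for Cacna1b, chr7:131666301-131666550 on the plus strand for Cacnb3 and chr16:5527550-5527799 on the minus strand for Cacna1d.
Cacna1b: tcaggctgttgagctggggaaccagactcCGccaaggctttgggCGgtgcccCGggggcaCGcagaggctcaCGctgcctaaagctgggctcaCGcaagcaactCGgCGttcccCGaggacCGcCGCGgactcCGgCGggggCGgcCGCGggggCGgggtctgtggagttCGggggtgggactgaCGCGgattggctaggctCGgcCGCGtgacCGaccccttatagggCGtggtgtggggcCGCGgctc
Cacnb3: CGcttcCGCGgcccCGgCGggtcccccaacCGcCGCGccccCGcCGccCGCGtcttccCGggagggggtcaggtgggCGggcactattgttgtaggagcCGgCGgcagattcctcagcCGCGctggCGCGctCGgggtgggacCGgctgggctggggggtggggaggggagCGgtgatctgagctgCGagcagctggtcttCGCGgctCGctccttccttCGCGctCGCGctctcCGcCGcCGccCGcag
Cacna1d: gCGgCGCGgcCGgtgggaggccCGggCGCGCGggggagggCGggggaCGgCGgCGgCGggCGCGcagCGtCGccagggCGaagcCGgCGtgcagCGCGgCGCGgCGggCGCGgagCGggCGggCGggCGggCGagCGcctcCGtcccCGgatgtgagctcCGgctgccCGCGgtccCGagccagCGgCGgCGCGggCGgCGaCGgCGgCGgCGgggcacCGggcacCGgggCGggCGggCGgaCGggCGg
The Cacna1b window holds 28 CG dinucleotides, the Cacnb3 window 35 and the Cacna1d window 56, against a median of 5 over 33469 windows of the same length. As many as 56 occur in 0.00598% of those windows. The windows of Cacna1a and Cacna2d1 are also rich in CG, with 34 in the former and 32 to 37 in the 3 windows of the latter. Those of Cacna1e and Cacna1c hold 6 and 3. The motif GGGCGG, read on both strands, occurred 3 times each in the Cacna1b and Cacnb3 windows and 9 times in that of Cacna1d, and 30.5% of all windows hold it. Neither TGACGTCA, held by 1.59% of windows, nor CACGTG, held by 5.59%, occurs in any of the 9 windows of these genes. DNA methylation was not analysed here.

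Some libraries stood apart in markers of cells other than cortical neurons. The summed FPKM of 12 striatum markers was 1418 in HF 8 and 781 to 1057 in HF_PBS 2, 3 and 4, against 237 to 428 in the other libraries. That of 9 oligodendrocyte markers was 12535 in HF_PBS 3 and 13559 in HF_PBS 4, and no more than 7111 elsewhere. The 8 microglia markers, none at 0, summed to 237.8 to 302 in HF_PBS 3 and 4 and HF_5AzaD 5 and 7, against 133 to 143 in chow and no more than 197 in any other library. Astrocyte markers were highest in HF_PBS 3, at 4089, with 2267 to 3813 in the other libraries. The 6 excitatory neuron markers, which define the labelled cortex here with none at 0, summed to 2261 to 2432 in chow, 1552 to 3145 in HF, 564 to 1529 in HF_PBS and 1344 to 1724 in HF_5AzaD. By the mean log2 level of those markers, HF_PBS 3, HF_5AzaD 5 and HF_5AzaD 7 were the lowest, at -1.11, -0.89 and -0.72 relative to the mean of all libraries. By the sum, HF_5AzaD 5 was the highest of its group, at 1724. In bulk tissue, fewer cells of a type cannot be told apart from less RNA per cell. Relative depth was 38.7% to 100% in chow, with chow 2 as 100%, and 30.1% to 44.4% in the other groups. No label gives a batch, and any batch that coincided with the injections cannot be told apart from their effect.

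In chow, Cacnb3 had the highest FPKM of the 10 genes (118 ± 8.65, SD, n = 4), followed by Cacna2d1 (84.3 ± 8.11), and neither overlapped its neighbours in the order. Cacnb4 (41.4 ± 4.68) and Cacna1a (39.5 ± 1.59) came next with overlapping ranges, then Cacna1g (26.1 ± 2.63) and Cacna1e (23.2 ± 2.10), which also overlapped. Cacna1b was at 17.8 ± 0.967 FPKM, apart from both neighbours. Cacna1d (9.56 ± 1.29), Cacna1h (8.35 ± 2.87) and Cacna1c (6.05 ± 0.303) had the lowest levels, and neighbours among these overlapped. The presynaptic P/Q-type gene Cacna1a had the highest level of the 7 pore genes in chow, and the L-type gene Cacna1c the lowest.

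**Figure D1:**
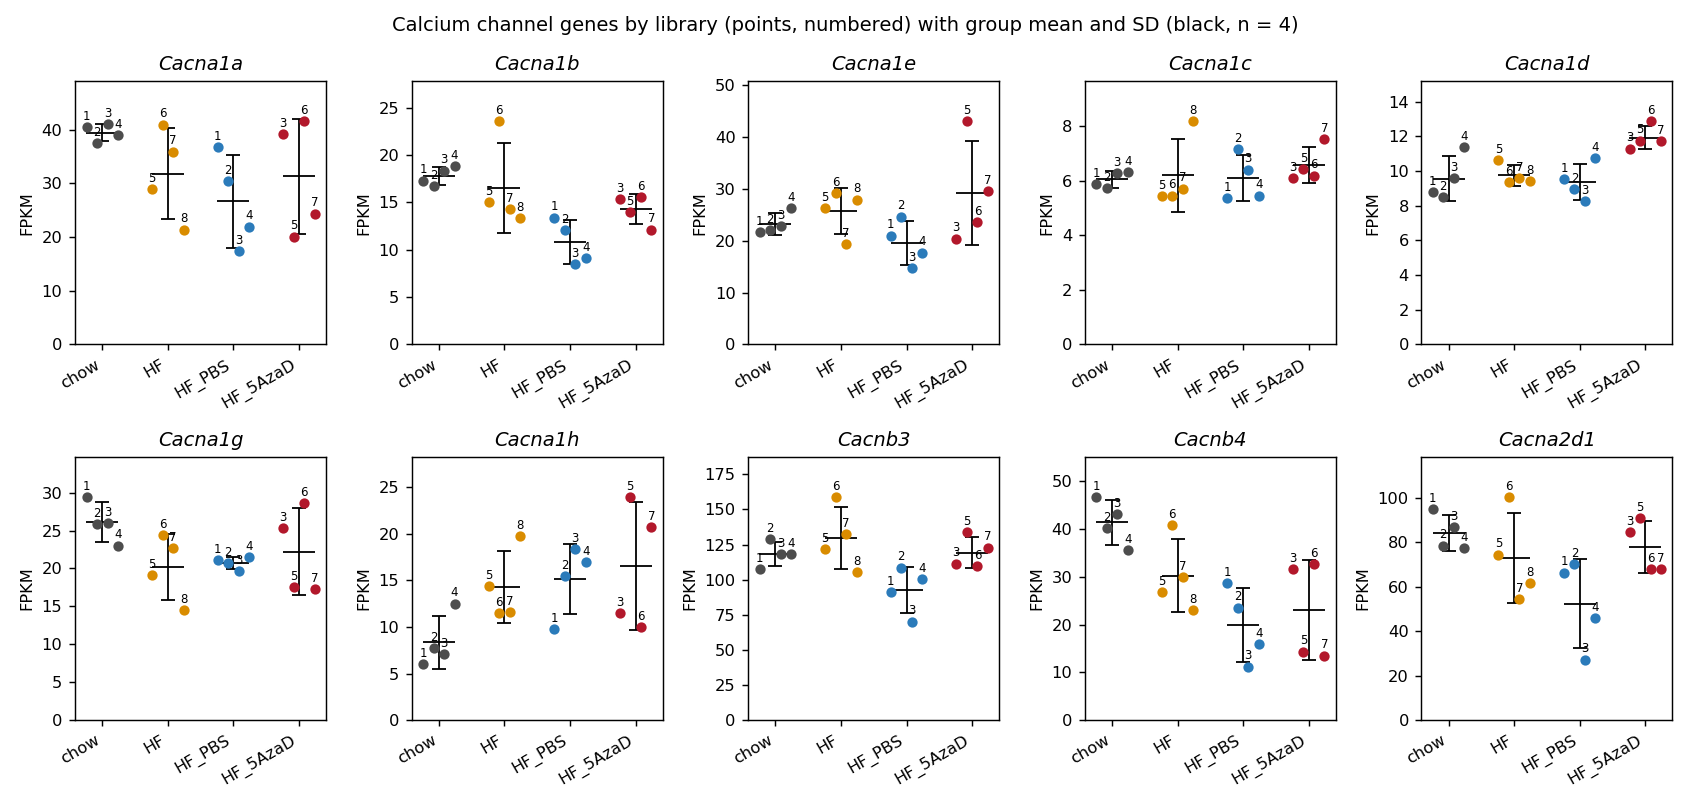
FPKM of each gene (vertical axes, from 0) in the 16 libraries, numbered as in their titles, by group, with the group mean and SD in black (n = 4). In HF_5AzaD, libraries 5 and 7 lie below libraries 3 and 6 for Cacna1a, Cacna1g and Cacnb4 and above them for Cacna1e and Cacna1h.

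Of the presynaptic pore genes, the N-type gene Cacna1b had its lowest levels in HF_PBS. Its FPKM was 17.3, 16.7, 18.4 and 18.8 in chow 1 to 4, and 15.0, 23.6, 14.3 and 13.3 in HF 5 to 8. It was 13.4, 12.1, 8.51 and 9.14 across HF_PBS 1 to 4, and 15.4, 14.0, 15.6 and 12.1 in HF_5AzaD 3, 5, 6 and 7. All HF_PBS libraries lay below every chow library, and HF_PBS 1 alone overlapped the HF range. Cacna1b fell by 0.58 on the log2(FPKM + 0.5) scale from HF to HF_PBS (SE 0.170, adjusted p = 0.0248) and by 0.72 from chow to HF_PBS (SE 0.170, adjusted p = 0.00887). Against HF the call was lost without HF 6, HF_PBS 3 or HF_PBS 4 (adjusted p = 0.0706 to 0.0833) and with only the groups compared in the fit (0.102), and against chow it was lost under no single library left out. With both HF_PBS 3 and HF_PBS 4 left out, the libraries highest in oligodendrocyte markers, the differences were -0.33 from HF (adjusted p = 0.310) and -0.47 from chow (adjusted p = 0.159). From HF_PBS to HF_5AzaD the difference was 0.41 (SE 0.170, adjusted p = 0.635), with ranges that overlapped.

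The P/Q-type gene Cacna1a, which carries much of the calcium entry for transmitter release, passed no test. Its FPKM was 40.4, 37.5, 41.0 and 38.9 in chow and 29.0, 40.9, 35.9 and 21.4 in HF 5 to 8. It was 36.7, 30.5, 17.3 and 21.9 across HF_PBS 1 to 4 and 39.1, 20.1, 41.6 and 24.4 in HF_5AzaD 3, 5, 6 and 7. The SD was 1.59 in chow and 8.49 to 10.7 in the other groups. All HF_PBS libraries lay below all chow libraries, with a difference of -0.62 (SE 0.262, adjusted p = 0.0888). HF 8, HF_PBS 3 and 4, and HF_5AzaD 5 and 7 were the 5 lowest libraries, and they are also the 5 lowest in the mean log2 level of excitatory markers. By the summed FPKM of these markers they are not, as HF_PBS 1 and 2 (1529 and 1508) lay below HF 8 (1552) and HF_5AzaD 5 (1724). The same 5 libraries had the lowest sums of pan-neuronal markers (7 of 8 tested, none at 0). These sums were 1707 to 2649 FPKM, with HF_PBS 2 next at 3003. Their mean log2 levels of pan-neuronal markers were also the lowest, at -0.82 to -0.24, with HF_PBS 2 next at -0.17. The part of cell makeup in the level of Cacna1a was not tested.

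The R-type gene Cacna1e had its highest level in HF_5AzaD 5, at 43.1 FPKM, followed by HF_5AzaD 7 at 29.5. HF_5AzaD 3 and 6 were at 20.4 and 23.6, within the chow range of 21.6 to 26.2 or just below it. The range was 19.4 to 29.3 among HF libraries and 14.8 to 24.7 among HF_PBS libraries. The difference between HF_5AzaD and HF_PBS was 0.53 (SE 0.207, adjusted p = 0.610), with overlapping groups, and 0.33 without HF_5AzaD 5. The ratio of Cacna1e to Cacna1a was 0.535 to 0.674 in chow, 0.541 to 1.31 in HF and 0.572 to 0.851 in HF_PBS. In HF_5AzaD 5 and 7 it was 2.15 and 1.21, and in HF_5AzaD 3 and 6 it was 0.523 and 0.567.

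Of the L-type genes, Cacna1d was higher in every HF_5AzaD library than in any HF or HF_PBS library. Its FPKM was 11.3, 11.7, 12.9 and 11.7 in HF_5AzaD 3, 5, 6 and 7, and 9.53, 8.94, 8.25 and 10.7 across HF_PBS 1 to 4. It was 8.80, 8.49, 9.58 and 11.4 in chow 1 to 4 and 10.6, 9.34, 9.60 and 9.39 in HF 5 to 8. Chow 4 alone overlapped the HF_5AzaD range. Cacna1d rose from chow to HF_5AzaD by 0.31 (SE 0.0995, adjusted p = 0.0475), the only call among the 10 genes in this comparison. The call was lost without any one of the HF_5AzaD libraries and without chow 1, 2 or 3 (7 cases, adjusted p = 0.0554 to 0.126), as well as with no filter (0.0668), with no trend in the prior (0.0525) and with only the groups compared (0.0673). The differences from HF_PBS (0.34, SE 0.0995, adjusted p = 0.586) and from HF (0.28, adjusted p = 0.0723) did not pass, although the groups did not overlap. Over all libraries it ran from 8.25 to 12.9 FPKM, and Cacna1c alone among the 10 had a smaller ratio of its highest to its lowest library.

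Cacna1c, the other L-type gene, had group means of 6.05 to 6.56 FPKM and a range of 5.38 to 8.18 over all libraries. Its highest library was HF 8, at 8.18, which also had the highest sum of striatum markers. The other HF libraries were at 5.44 to 5.71. HF_PBS 4, next in that sum at 1057, was at 5.46 FPKM for Cacna1c. HF_PBS 2 and 3, with sums of 781 and 833, were at 7.17 and 6.41. HF_5AzaD 7, the next highest in Cacna1c at 7.53, had a striatum sum of 382. The part of striatum markers in the level of Cacna1c was not tested.

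Of the T-type genes among the 10, Cacna1h had higher means in all 3 high fat groups than in chow, and it passed the test only in HF_PBS against chow. Its FPKM was 6.01, 7.74, 7.12 and 12.5 in chow 1 to 4 and 14.4, 11.5, 11.6 and 19.7 in HF 5 to 8. It was 9.78, 15.5, 18.3 and 17.0 across HF_PBS 1 to 4, and 11.5, 24.0, 9.98 and 20.7 in HF_5AzaD 3, 5, 6 and 7. Chow 4 lay within the range of each high fat group, whereas chow 1, 2 and 3 lay below all other libraries. Summed deep layer markers (8 of 9 tested, none at 0) were at 103 to 142 FPKM in chow 1 to 3 and 241 in chow 4, against 164 to 403 in HF, 176 to 340 in HF_PBS and 129 to 399 in HF_5AzaD. By their mean log2 level, chow 1 to 3 were at -0.66 to -0.21 and overlapped each high fat group. The ranges were -0.34 to 0.74 in HF, -0.23 to 0.52 in HF_PBS and -0.42 to -0.03 in HF_5AzaD, with chow 4 at 0.13. HF_5AzaD 5 and 7, the highest in Cacna1h, were at -0.09 and -0.42, and HF 8, the next highest, was at 0.74. The libraries highest in Cacna1h, HF_5AzaD 5 and 7, HF 8 and HF_PBS 3 and 4, were the lowest in pan-neuronal markers. This held by the sum, at 1707 to 2649 FPKM with HF_PBS 2 next at 3003, and by the mean log2 level. The part of deep layer or pan-neuronal markers in the level of Cacna1h was not tested. Cacna1h rose from chow to HF_PBS by 0.84 (SE 0.296, adjusted p = 0.0472). Leaving out chow 1, 2 or 3 or HF_PBS 2, 3 or 4 took the call away (6 cases, adjusted p = 0.0752 to 0.121), as did no filter on low values (0.0698) and a prior with no trend (0.0508). The differences from chow were 0.76 in HF (SE 0.296, 95% interval 0.13 to 1.39, adjusted p = 0.696) and 0.90 in HF_5AzaD (SE 0.296, adjusted p = 0.0502).

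Cacna1g, the other T-type gene among the 10, had means of 26.1 ± 2.63 FPKM in chow, 20.2 ± 4.37 in HF, 20.7 ± 0.770 in HF_PBS and 22.2 ± 5.72 in HF_5AzaD. The 4 HF_PBS libraries, at 19.7 to 21.5, lay below all chow libraries, at 23.0 to 29.4. HF 8 was the lowest library of all, at 14.5, and HF_5AzaD 5 and 7, at 17.5 and 17.3, came next. The difference between HF and chow was -0.38 (SE 0.171, adjusted p = 0.702). The ratio of Cacna1g to Cacna1h was 4.90, 3.34, 3.66 and 1.84 in chow 1 to 4. In the high fat groups it ran from 0.730 in HF_5AzaD 5 to 2.87 in HF_5AzaD 6, so chow 4 alone among the chow libraries overlapped them.

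Of the beta subunit genes, Cacnb3 passed a test in 1 comparison. It was at 108, 129, 118 and 118 FPKM in chow 1 to 4 and 122, 159, 132 and 106 in HF 5 to 8. It was 91.4, 109, 70.1 and 100 across HF_PBS 1 to 4, and 111, 134, 109 and 123 in HF_5AzaD 3, 5, 6 and 7. HF_PBS 1, 3 and 4 were the 3 lowest libraries, and HF_PBS 2 was inside the ranges of chow and HF. Cacnb3 fell by 0.49 from HF to HF_PBS (SE 0.140, adjusted p = 0.0235). The call was lost without HF 6 or HF_PBS 3 (adjusted p = 0.0874 and 0.0635) and with only the groups compared (0.0937), and the difference was -0.36 (adjusted p = 0.167) without HF_PBS 3 and 4 together. Every HF_5AzaD library lay above every HF_PBS library, by 0.38 on average (SE 0.140, adjusted p = 0.594), or by 0.25 without HF_PBS 3.

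Cacnb4, which encodes the beta subunit whose loss causes ataxia and seizures in the lethargic mouse, had the widest range of the 10 genes, with its highest library 4.16 times its lowest. Its FPKM was 46.7, 40.2, 43.2 and 35.7 in chow 1 to 4 and 26.8, 40.8, 29.97 and 23.1 in HF 5 to 8. It was 28.6, 23.5, 11.2 and 15.96 across HF_PBS 1 to 4, and 31.6, 14.3, 32.6 and 13.5 in HF_5AzaD 3, 5, 6 and 7. Both injected groups lay wholly below chow, and HF_PBS 3 and 4 and HF_5AzaD 5 and 7 were the lowest libraries. Cacnb4 fell by 1.12 from chow to HF_PBS (SE 0.316, adjusted p = 0.0194), and the call was lost without HF_PBS 3 or HF_PBS 4 (adjusted p = 0.0593 and 0.0614). The difference between HF_5AzaD and chow was -0.95 (SE 0.316, adjusted p = 0.0540). The ratio of Cacnb3 to Cacnb4 was 2.31 to 3.32 in chow and 3.89 to 4.58 in HF, ranges that do not overlap. It was 3.20, 4.61, 6.25 and 6.28 across HF_PBS 1 to 4 and 3.53, 9.33, 3.36 and 9.12 in HF_5AzaD 3, 5, 6 and 7.

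Cacna2d1, the alpha2delta gene, was at 94.7, 78.5, 86.6 and 77.3 FPKM in chow 1 to 4 and 74.4, 100.3, 54.5 and 61.7 in HF 5 to 8. It was 66.3, 70.3, 27.2 and 45.8 across HF_PBS 1 to 4, and 84.6, 90.8, 67.8 and 68.1 in HF_5AzaD 3, 5, 6 and 7. HF_PBS lay wholly below chow, and HF_PBS 3 was the lowest library. Cacna2d1 fell by 0.77 from chow to HF_PBS (SE 0.253, adjusted p = 0.0358). The call was lost without any one chow library and without HF_PBS 3 or 4 (6 cases, adjusted p = 0.0604 to 0.0949), with no filter (0.0532) and with only the groups compared (0.0637), and the difference was -0.49 without HF_PBS 3. From HF_PBS to HF_5AzaD it was 0.65 (SE 0.253, adjusted p = 0.610), and 0.37 without HF_PBS 3.

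The diet alone went with no call among these genes. In HF against chow, limma with Benjamini-Hochberg adjustment called 0.0% of loci and none of the 10 genes. At an unadjusted p under 0.05 it counted 1020 loci (6.88%) and 2 of the 10, Cacna1g below chow and Cacna1h above it. The groups overlapped for all 10 and did not overlap in 6.95% of loci. Of the 10 differences, 5 were above 0, and their median was -0.06 against -0.01 over all loci tested.

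In HF_PBS against HF, 2 of the 10 genes fell, Cacna1b and Cacnb3, and none rose, where limma called 23.9% of all loci tested and 13.2% as lower. The members' share was near that of all loci. Of the 10 differences, 8 were below 0, with a median of -0.33 against 0.01 over all loci, and of -0.16 without HF_PBS 3. The groups overlapped for all 10, whereas they did not overlap in 21.2% of loci. With HF_PBS 3 and 4 left out the count of members called was 0. Far fewer loci of any kind were called then, as given below, so that count does not set these genes apart.

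In HF_PBS against chow, Cacna1b, Cacna2d1 and Cacnb4 fell and Cacna1h rose, 4 of the 10 where limma called 28.2% of loci (15.7% lower and 12.4% higher). The groups did not overlap for 5 of the 10 genes, Cacna1a, Cacna1b, Cacna1g, Cacna2d1 and Cacnb4, and for 33.3% of loci. The median difference was -0.34 against 0.01 over all loci. The count of members called was 1 without HF_PBS 3 or without HF_PBS 4, 2 without chow 1, 2 or 3, and 0 without HF_PBS 3 and 4 together. With 1 library left out, 2013 to 4629 of all 14824 loci were called in this comparison. Far fewer were called without HF_PBS 3 and 4, as given below, so the count of 0 does not set these genes apart.

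In HF_5AzaD against HF_PBS, the comparison of the inhibitor with its vehicle, no gene of the 10 passed and limma called 0.0% of loci. All 10 genes had a higher mean in HF_5AzaD on the log2 scale, with a median difference of 0.28 against 0.01 over all loci tested. An unadjusted p under 0.05 was reached by 5 of the 10, Cacna1b, Cacna1d, Cacna1e, Cacna2d1 and Cacnb3, and by 1100 loci (7.42%). The groups did not overlap for Cacna1d and Cacnb3, and for 2.4% of loci. Without HF_PBS 3, 9 of the 10 differences were above 0 and 1 reached an unadjusted p under 0.05, and without HF_PBS 3 and 4 together 8 were above 0. Cacna1b, Cacna1e and Cacna2d1 had their lowest values of all 16 libraries in HF_PBS 3 and 4, which were highest in oligodendrocyte markers, and the part of cell makeup in these differences was not tested.

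In HF_5AzaD against chow, 1 of the 10 rose, Cacna1d, where limma called 16.3% of loci (7.18% higher). The groups did not overlap for 2 of the 10, Cacna1b and Cacnb4, both lower, and for 27.2% of loci. In HF_5AzaD against HF, none of the 10 passed and 14.2% of loci were called. An unadjusted p under 0.05 was reached by 1 of the 10, Cacna1d, and by 32.5% of loci. Cacna1d was also the only one of the 10 whose groups did not overlap there, as in 17.7% of loci. These comparisons share their HF_PBS, HF_5AzaD or chow libraries with one another.

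Injected against uninjected sets HF_PBS and HF_5AzaD together against chow and HF together. Both injected groups were fed high fat while the uninjected side includes chow, so this comparison also holds part of the diet difference. In it, Cacna1b fell by 0.45 (SE 0.120, adjusted p = 0.00917) and Cacnb4 by 0.80 (SE 0.224, adjusted p = 0.0118). These were 2 of the 10 where limma called 40.8% of loci, 21.0% as lower. No single library left out took either call away. Without HF_PBS 3 and 4 together, adjusted p was 0.0612 for Cacna1b and 0.0716 for Cacnb4. Without HF_5AzaD 5 and 7 together, Cacnb4 also lost its call (-0.50, adjusted p = 0.0655). Against HF alone, Cacnb4 was not called in HF_PBS (-0.65, adjusted p = 0.149) or in HF_5AzaD (-0.47, adjusted p = 0.320). Cacna1b was called against HF in HF_PBS (-0.58, adjusted p = 0.0248) and not in HF_5AzaD (-0.18, adjusted p = 0.498). Ribosomal protein transcripts were higher in the injected groups. Relative to all libraries, the mean log2 level of 74 loci was -0.36 to -0.08 in the uninjected groups and -0.02 to 0.55 in the injected groups. The part of RNA quality in the channel results was not tested.

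**Figure D2:**
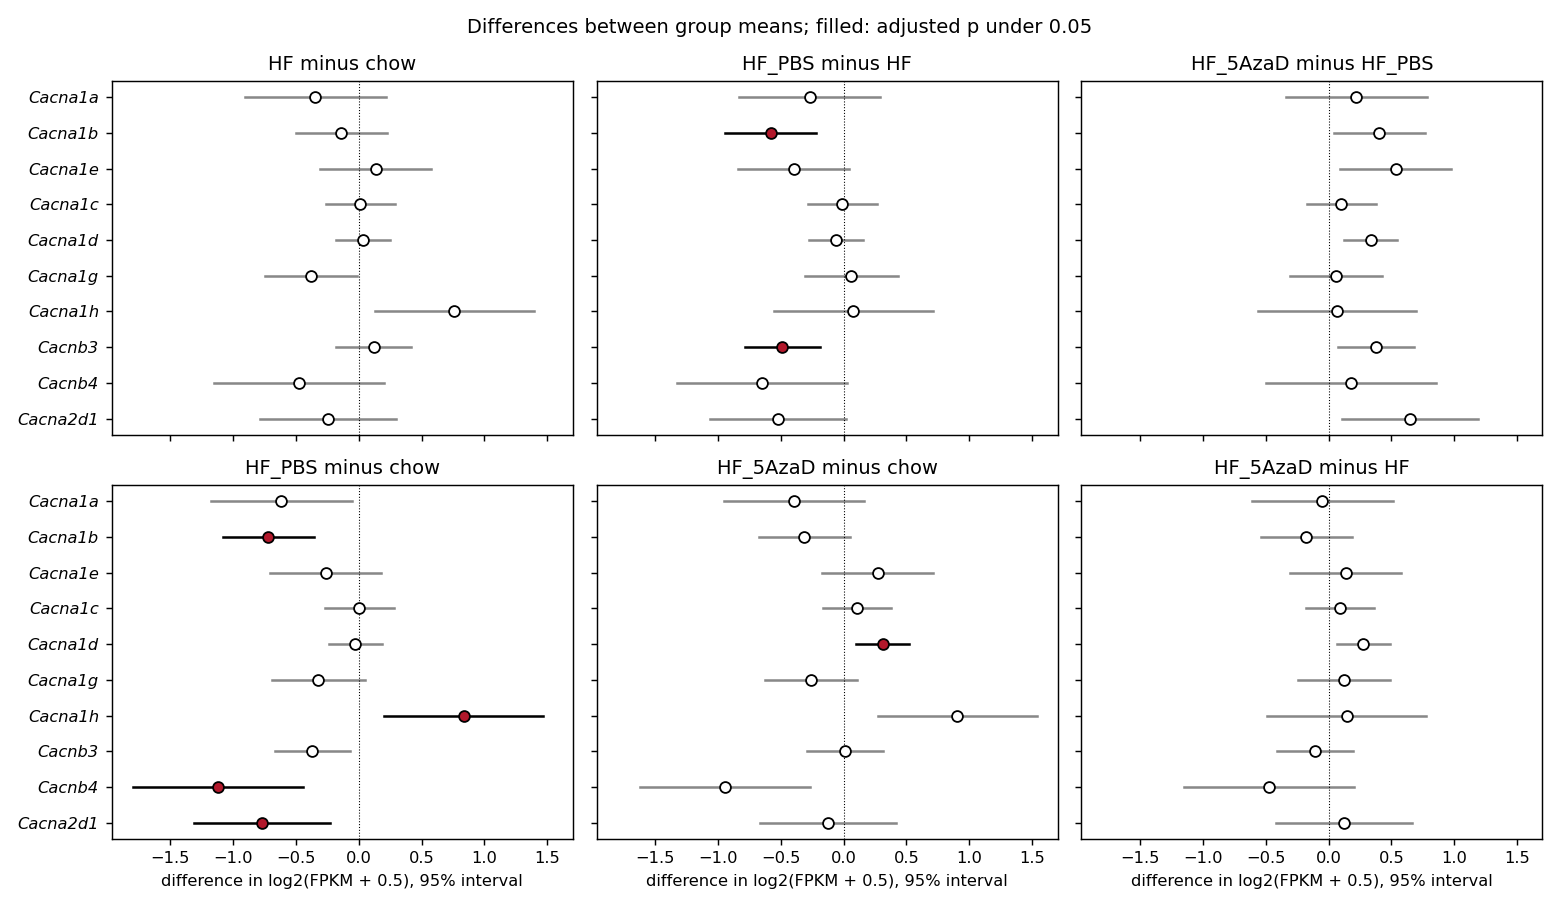
Difference in log2(FPKM + 0.5) between group means (horizontal axes) for the 10 genes in 6 comparisons, with 95% intervals, where filled points have an adjusted p under 0.05. Filled points are Cacna1b and Cacnb3 for HF_PBS against HF, 4 genes for HF_PBS against chow, and Cacna1d for HF_5AzaD against chow, and all 10 points lie above 0 for HF_5AzaD against HF_PBS.

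Shares of the summed FPKM of the 7 pore genes describe how their make-up differed between libraries whatever the total. The presynaptic genes Cacna1a, Cacna1b and Cacna1e held 61.7% ± 0.673 of the sum in chow (SD, n = 4), 59.2% ± 4.22 in HF, 52.0% ± 7.997 in HF_PBS and 56.6% ± 2.17 in HF_5AzaD. The T-type genes held 26.4% ± 0.999, 27.9% ± 2.17, 33.7% ± 6.51 and 29.4% ± 1.38, in the same order. This T-type share is of Cacna1g and Cacna1h, and it leaves out Cacna1i, another T-type pore gene that is not among the 10. With Cacna1i counted in, an alternative added after seeing the data, the T-type share was 41.7% ± 1.30 in chow, 41.3% ± 1.49 in HF, 41.1% ± 5.51 in HF_PBS and 37.2% ± 1.43 in HF_5AzaD, so the higher mean of HF_PBS was no longer seen. The presynaptic share was then 48.9% ± 0.749, 48.1% ± 2.49, 46.1% ± 6.88 and 50.3% ± 1.48. For Cacna1g and Cacna1h alone, in HF_PBS 3 and 4 the T-type share was 40.8% and 37.2%, and in HF_PBS 1, at 26.4%, it was inside the chow range of 25.3% to 27.4%. The share of Cacna1h alone was 4.65% to 9.12% in chow and reached 19.6% in HF_PBS 3, 17.5% in HF_5AzaD 5 and 17.2% in HF 8. The L-type genes held 11.9% ± 0.716, 12.96% ± 2.11, 14.4% ± 1.51 and 14.0% ± 1.08. The summed pore FPKM was 130.5 ± 5.42 in chow and 131.9 ± 7.02 in HF_5AzaD, with 124.5 ± 13.5 in HF and 108.3 ± 12.2 in HF_PBS. No test was run on these shares.

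**Figure D3:**
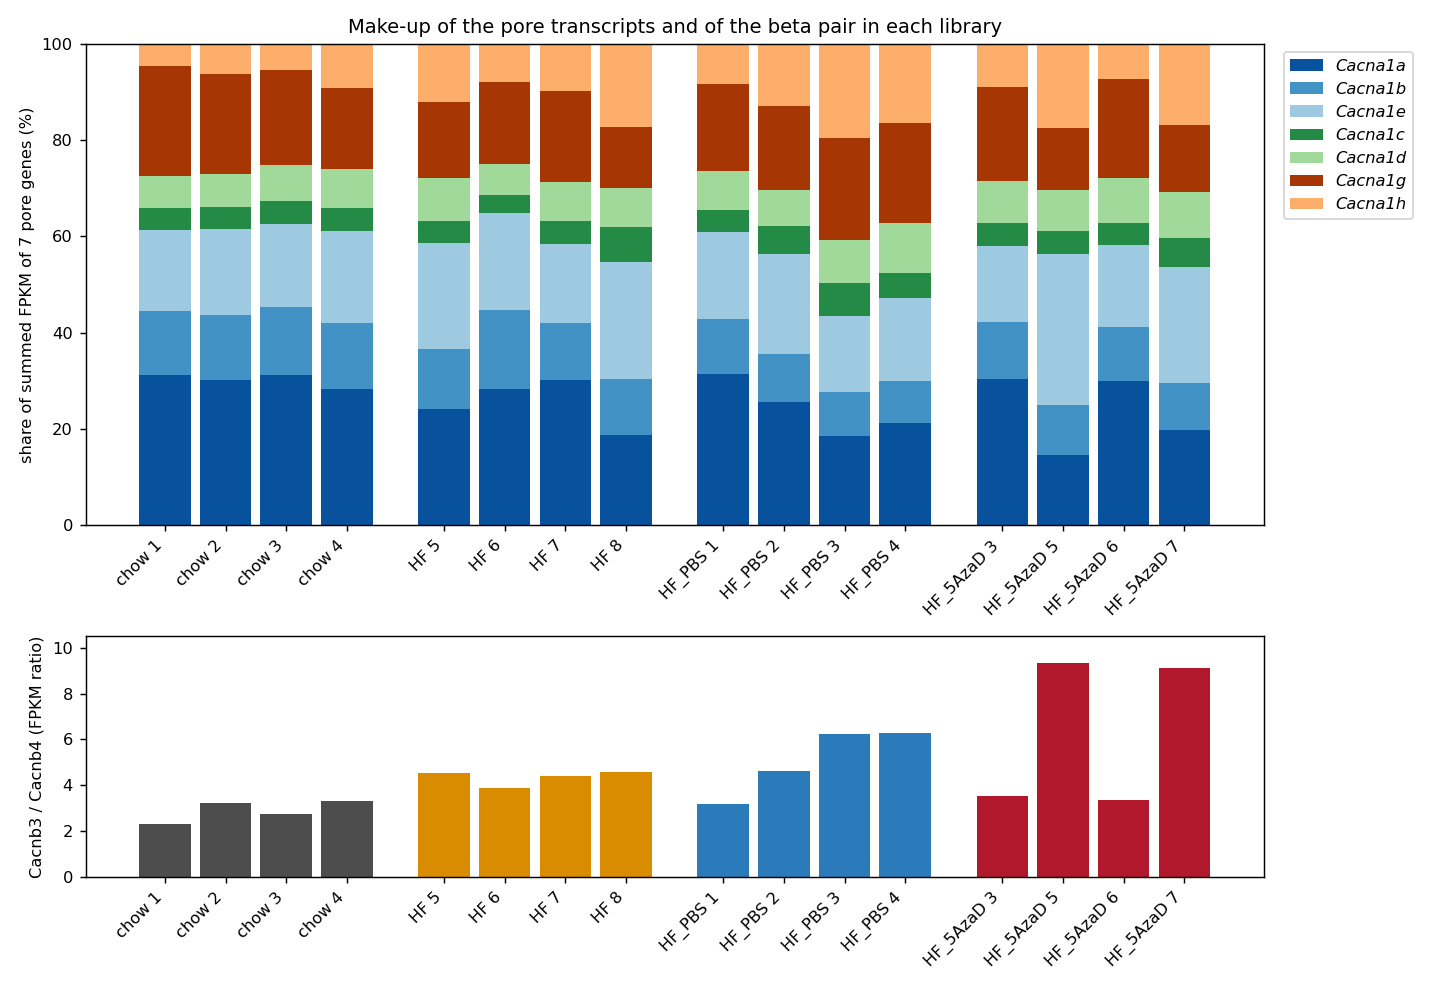
Share of the summed FPKM of the 7 pore genes held by each gene (upper panel, percent, stacked) and FPKM of Cacnb3 divided by that of Cacnb4 (lower panel), for each of the 16 libraries. Cacna1h (top segment) is largest in HF_PBS 3, and the Cacnb3 to Cacnb4 ratio exceeds 9 in HF_5AzaD 5 and 7 only.

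The 4 HF_5AzaD libraries split within their group along several members. Libraries 5 and 7 were at 20.1 and 24.4 FPKM for Cacna1a, and libraries 3 and 6 at 39.1 and 41.6. For Cacnb4 they were at 14.3 and 13.5 against 31.6 and 32.6, and for Cacna1h at 24.0 and 20.7 against 11.5 and 9.98. Libraries 5 and 7 lay below both others for Cacna1a, Cacna1g and Cacnb4 and above both for Cacna1e and Cacna1h. By the mean log2 level of excitatory markers, the 2 libraries were the lowest of their group, at -0.89 and -0.72 against 0.27 and 0.07. By the summed FPKM of these markers, library 5 was the highest of its group, at 1724, and library 7 the lowest, at 1344. In striatum markers, at 237 and 382 summed FPKM, they lay within the range of chow and HF 5 to 7 or just below it, and in oligodendrocyte markers they were at 2303, below every chow library, and 3975, within the chow range. In microglia markers they were at 244 and 267, against 150 and 183 in libraries 3 and 6 and 133 to 143 in chow. The 4 libraries highest in summed microglia markers, these and HF_PBS 3 and 4, are the 4 lowest in Cacnb4. By the mean log2 level of these markers, HF 7, at 0.28, lay above HF_PBS 4, at 0.20, and HF 7 was at 29.97 FPKM for Cacnb4. The part of cell makeup in the level of Cacnb4 was not tested. With HF_5AzaD 5 and 7 both left out, no member passed in HF_5AzaD against chow, where far fewer loci of any kind passed than with all libraries.

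Other genes named as calcium channel subunits were examined as a list of 16, of which 11 passed the filter on low values. The 11 include Cacng2, Cacng3, Cacng4, Cacng5, Cacng7 and Cacng8, so their counts are not of pore, beta and alpha2delta genes alone. In HF_PBS against chow, 5 of the 11 fell and 1 rose, and in HF_PBS against HF, 2 fell and 1 rose. The median difference of the 11 in the latter was -0.35, where it was 0.01 over all loci tested and 23.9% of loci were called. In HF_PBS against chow 28.2% of loci were called. In HF_5AzaD against chow 3 fell, where 16.3% of loci were called, in HF_5AzaD against HF 1 fell, where 14.2% were, and none passed in HF against chow or in HF_5AzaD against HF_PBS. Cacna1i, a T-type pore gene, fell in each of the 4 comparisons of an injected with an uninjected group. It also fell in the injected against the uninjected groups together (-1.05, SE 0.159, adjusted p = 0.000373). There 4 of the 11 fell and 1 rose, where 40.8% of loci were called, 21.0% as lower. The FPKM of Cacna1i was 34.1 ± 0.991 in chow, 28.7 ± 7.17 in HF, 13.7 ± 2.30 in HF_PBS and 16.7 ± 6.59 in HF_5AzaD, a difference of -1.02 from HF to HF_PBS (SE 0.225, adjusted p = 0.00727). Cacna2d3, another alpha2delta gene, was at 50.7 ± 5.81, 37.5 ± 9.73, 17.4 ± 6.55 and 21.4 ± 11.6, and fell by 1.12 from HF to HF_PBS (SE 0.371, adjusted p = 0.0407). Cacna2d2, an alpha2delta gene as well, rose from 8.01 ± 1.74 in HF to 17.8 ± 6.61 in HF_PBS, by 1.04 (SE 0.259, adjusted p = 0.0122). It was highest in HF_PBS 3 and 4, at 25.0 and 19.95, while HF_PBS 1, at 9.20, was within the chow range. Cacng2, which encodes stargazin, an auxiliary subunit of AMPA receptors as well, fell by 1.38 from chow to HF_PBS (SE 0.373, adjusted p = 0.0164). Cacna1f, Cacna1s, Cacna2d4, Cacng1 and Cacng6 stayed below the filter, with means of 0.0588 to 0.382 FPKM.

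**Figure D4:**
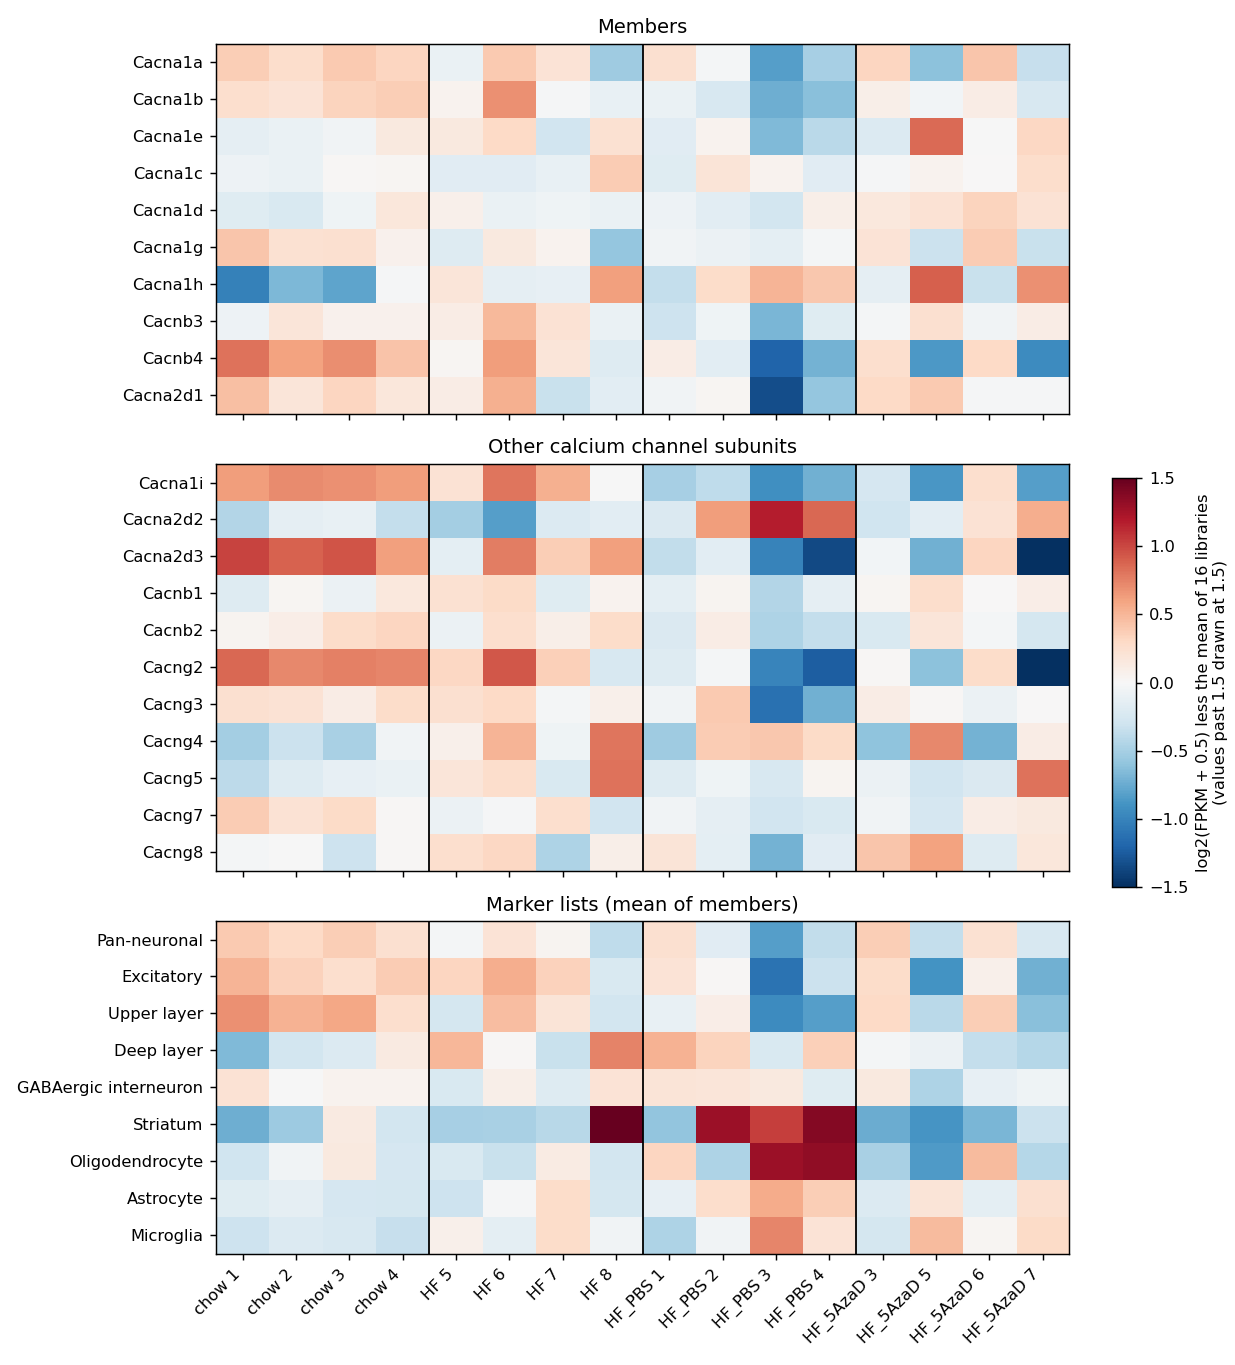
Level of each channel gene and of the mean of each marker list in each library, as log2(FPKM + 0.5) less the mean of the 16 libraries (colour, drawn to 1.5). Cacnb4, Cacna1i, Cacna2d3, Cacng2 and the excitatory list are all blue in HF_PBS 3 and 4 and in HF_5AzaD 5 and 7, and the oligodendrocyte list is darkest in HF_PBS 3 and 4.

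Genes of the channels' partners at the release site numbered 29, of which 28 were tested. In HF_PBS against HF, 6 of these fell and none rose, and in HF_PBS against chow 10 fell and 2 rose. In HF_5AzaD against chow 4 fell, and in HF_5AzaD against HF 3 fell. The shares of all loci called were 23.9%, 28.2%, 16.3% and 14.2% in these comparisons, of which 13.2% and 15.7% were lower in the first and the second. Unc13a, a vesicle priming gene, was at 49.6 ± 18.4 FPKM in HF, 19.3 ± 5.16 in HF_PBS and 26.7 ± 4.61 in HF_5AzaD. It fell by 1.32 from HF to HF_PBS (SE 0.225, adjusted p = 0.00291), and Erc1, an active zone scaffold gene, fell by 0.63 (SE 0.133, adjusted p = 0.00589). The median difference of the list was -0.37 in that comparison, against 0.01 over all loci.

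A list of genes that clear, store or sense calcium or are opened by it, which includes calcium-activated potassium channels and neuronal calcium sensors, numbered 25, with 21 tested. In HF_PBS against HF 5 fell and none rose, with a median of -0.21 against 0.01 over all loci, and in HF_PBS against chow 6 fell, where 23.9% and 28.2% of loci were called. Ncs1, a neuronal calcium sensor, fell from 82.0 ± 12.2 FPKM in HF to 47.5 ± 2.97 in HF_PBS, by 0.77 (SE 0.147, adjusted p = 0.00408). The locus that carries the sodium-calcium exchanger gene Slc8a2 together with Kptn fell by 1.29 (SE 0.341, adjusted p = 0.0161) and the calcium pump gene Atp2b1 fell by 1.44 (SE 0.436, adjusted p = 0.0285). In HF_5AzaD against chow 2 fell, where 16.3% of loci were called. In HF_5AzaD against HF, where 14.2% were, 2 fell and 1 rose, Calb1, which encodes the calcium buffer calbindin (0.70, SE 0.216, adjusted p = 0.0436).

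Genes that carry the calcium signal to the nucleus numbered 26, with 24 tested. In HF_PBS against HF 5 fell, in HF_PBS against chow 9, in HF_5AzaD against chow 3 and in HF_5AzaD against HF 2, and none rose in any of these. The shares of all loci called were 23.9%, 28.2%, 16.3% and 14.2% in the same order. The median in the first was -0.17, against 0.01 over all loci. The transcription factor gene Mef2d fell from 67.3 ± 13.9 FPKM in HF to 38.3 ± 8.63 in HF_PBS, by 0.81 (SE 0.154, adjusted p = 0.00408). Crtc1, a coactivator of CREB, fell by 1.16 (SE 0.237, adjusted p = 0.00512). For the diet alone, and for the inhibitor against its vehicle, limma called no member of any of the 4 lists, as it called no locus at all.

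The loci whose log2 levels followed a member most closely over the 16 libraries were ranked by the root mean square of the difference after the mean of each was removed. For Cacna1b, which itself varied by 0.35, the closest were the locus of Camta2 and Spag7, at 0.09, LOC497978, at 0.12, and Hdlbp, at 0.12. For Cacna1a, which varied by 0.41, they were Osbp2, at 0.13, Tspan5, at 0.14, and LOC502894, at 0.14. Cacna1h had no locus nearer than 0.21, that of Slc12a3, against its own variation of 0.54.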

How the data were processed

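RNA of 16 frontal cortex libraries was measured by poly-A RNA sequencing. The authors deposited FPKM values per merged locus with a status per value. Per the submitters' processing notes, Cufflinks, Cuffdiff, Bowtie, Bowtie2, TopHat and TopHat2 were used with build rn5 of the rat genome, and no version is listed. The strandedness is not stated, so overlapping and antisense transcripts cannot be told apart. Read counts were not used, and absolute depth is unknown. Relative depth came from the steps between low FPKM values.

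Loci with status OK in all libraries and a mean of at least 1 FPKM (14824) were fitted with limma 3.58.1 in R 4.3.3 on log2(FPKM + 0.5), using all 16 libraries, a mean for each group and a mean-dependent prior. A fold change on that scale understates changes of low genes. Adjusted p is Benjamini-Hochberg over all loci tested within each of 7 comparisons, called under 0.05. Scripts were tested on simulated data. The members and gene lists were chosen with earlier results of these data known. Besides the members, up to 3 called list genes with the lowest p per direction and comparison could be named, and channel subunits with further values were chosen after they were seen. Alternatives changed the pseudocount, filter, scaling, prior, status rule, libraries and replicate block.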

Additional observations from a re-analysis of the deposited data

Results flagged for a closer look

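Checks for a library far from the others were made in 40 groups of 4 values (10 genes in 4 groups), with Dixon's 95% critical value, which chance passes in about 1 of 20 groups. Cacna1b was at 23.6 FPKM in HF 6, where the other HF libraries were at 13.3 to 15.0. Cacna1c was at 8.18 FPKM in HF 8, where the other HF libraries were at 5.44 to 5.71. These were 2 in 40, and chance gives 1 in 20. The cause of neither was tested.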

How the results depend on the processing

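Of 23 member differences with an unadjusted p under 0.05, none changed direction under any alternative that was run. Most of the 23 were not called in the main fit, so they had no call to lose. Over 216 values with 1 library left out, 178 kept direction and side of the threshold, 26 lost the call and 12 gained it. Over 210 values under the other planned settings the numbers were 196, 10 and 4, and over 69 values under 3 sets of libraries left out after seeing the data they were 47, 19 and 3. With 1 library left out, the losses were in HF_PBS against chow for Cacna1h (6), Cacna2d1 (6) and Cacnb4 (2). The others were Cacna1d (7) in HF_5AzaD against chow, and Cacna1b (3) and Cacnb3 (2) in HF_PBS against HF. The cause of these changes was not tested, apart from the number of loci tested or of libraries that a setting itself alters.

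With 1 library left out, loci called ranged from 0 to 0 for HF against chow, 1633 to 4036 for HF_PBS against HF, 0 to 1 for HF_5AzaD against HF_PBS, 2013 to 4629 for HF_PBS against chow, 399 to 2906 for HF_5AzaD against chow, 395 to 2306 for HF_5AzaD against HF and 4954 to 6329 for injected against uninjected. Members called ranged from 0 to 2, 1 to 5, 0 to 2 and 2 to 4 for HF_PBS against HF, HF_PBS against chow, HF_5AzaD against chow and injected against uninjected.

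For HF_PBS against chow, 2 members passed with no filter. For HF_5AzaD against chow, 0 members passed with no filter, with no trend in the prior or with only the groups compared, 3 with a filter of 5 FPKM, and 2 with median scaling or with every status kept. In the main fit, 28.2% and 16.3% of loci were called in these comparisons. The shares of loci called under the other settings are not given here, so these counts of members cannot be set against them. With every status kept, 1 locus passed in HF against chow. With only the groups compared, 1433 loci and 0 members passed for HF_PBS against HF and 27 loci for HF_5AzaD against HF.

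With HF_PBS 3 and 4 left out, 320 loci and 0 members passed for HF_PBS against HF, 101 and 0 for HF_PBS against chow, and 0 members for injected against uninjected, while 2 members passed for HF_5AzaD against chow. With HF 8 and HF_PBS 2, 3 and 4 left out, which leaves HF_PBS 1 alone and assumes that it varies like the rest, 0 loci and 0 members passed for HF_PBS against HF, 2 loci and 0 members for HF_PBS against chow, and 2506 loci and 0 members for injected against uninjected. With HF_5AzaD 5 and 7 left out, 1 locus passed for HF_5AzaD against HF_PBS, 73 loci and 0 members for HF_5AzaD against chow, 452 loci for HF_5AzaD against HF, and 1 member for injected against uninjected. With all libraries, 16.3% of loci were called for HF_5AzaD against chow and 40.8% for injected against uninjected.

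The replicate numbers did not pair the libraries: correlations of same-numbered libraries, after group means were removed, were -0.164 to 0.0236 for chow with HF_PBS and -0.107 to 0.0641 for HF with HF_5AzaD, and no library matched its own number best. With the number as a replicate block, 2331 loci passed for HF_PBS against chow, without Cacna2d1 (adjusted p = 0.0770), and 0 loci for HF_5AzaD against HF.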

Other observations

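Among the other subunits, the gamma subunit genes Cacng4 and Cacng5, which passed no test, were highest in HF 8, at 43.3 and 10.7 FPKM, the library with the highest sum of striatum markers. HF_5AzaD 5 was at 41.0 for Cacng4 and HF_5AzaD 7 at 10.6 for Cacng5. The chow libraries were at 17.2 to 23.7 and 4.34 to 5.40.

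The beta subunit gene Cacnb1 ran from 35.1 to 58.4 FPKM over all 16 libraries, and its lowest library was HF_PBS 3, as for Cacnb3. Cacng7 was at 129 ± 13.3 FPKM in chow and 97.2 ± 6.79 in HF_PBS, and fell by 0.40 (SE 0.122, adjusted p = 0.0259). These genes were chosen after their values were seen.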
